A study of Homo sapiens with 9 samples.

Results

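The matrix metalloproteinase cluster on chromosome 11 was followed in MDA-MB-231, an established line of human triple-negative breast cancer, after lentiviral delivery of a hairpin RNA. The compared libraries carried shCTDP1-#1, shCTDP1-#2 or the scrambled hairpin shScr, with 3 libraries per group and 9 in all. Both shCTDP1 hairpins are directed at CTDP1, a phosphatase of the RNA polymerase II C-terminal domain. All groups share the polybrene-assisted infection and the puromycin selection, and total RNA went into a TruSeq RNA kit. The labels do not say whether the libraries of a group are separate cultures, so each p-value reflects the spread among these libraries alone, and that spread may be technical.

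Members were the intervals lying wholly between 102390000 and 102850000 on chromosome 11 (hg19). The region held 13 of the 57773 intervals in each file. Files carry no gene names, so an interval was given a name where its start lay within 1 kb of the start listed for that gene by the rule. That named 4 genes on chromosome 11, namely MMP7, MMP8, MMP10 and MMP1. No interval of chromosome 11 starts where MMP3, MMP12 and MMP13 are listed, but 3 intervals with these starts lie on HG305_PATCH, a patch sequence of the reference, and those took the names. HG305_PATCH held 6 intervals in the same span, which makes 19 in all, 7 of them named. The order of the names along the region was that of the genes in RefSeq (GRCh38.p14), where MMP20 and MMP27 also lie between MMP7 and MMP8. No other interval was named, so the level of CTDP1, the inhibitors of these enzymes and the defining markers of the cell line were not analysed here.

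These genes encode secreted zinc-dependent endopeptidases that cut extracellular matrix. Each enzyme is made as an inactive precursor whose propeptide covers the catalytic zinc until it is removed, and tissue inhibitors of metalloproteinases hold the active form in check. MMP1, MMP8 and MMP13 are collagenases, able to cleave the triple helix of fibrillar collagen. MMP3 and MMP10 are stromelysins with a broad range of substrates, and MMP3 can activate the MMP1 precursor. MMP7 is a matrilysin that lacks the C-terminal hemopexin domain, and MMP12 is the macrophage elastase. In breast cancer, MMP1 is known for its link with invasion and metastasis.

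The codons of the zinc-binding motif show what the 7 members share, and are given here from GENCODE v29 transcripts, 5′ to 3′ on the coding strand. The motif occurred once in each member. Capitals mark the codons of its 3 zinc-binding histidines and of the catalytic glutamate that follows the first of them.
MMP1: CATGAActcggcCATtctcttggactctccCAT
MMP8: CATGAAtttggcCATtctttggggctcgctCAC
MMP13: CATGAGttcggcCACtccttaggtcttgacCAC
MMP3: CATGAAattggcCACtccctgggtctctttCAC
MMP10: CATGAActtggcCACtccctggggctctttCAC
MMP7: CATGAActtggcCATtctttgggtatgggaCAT
MMP12: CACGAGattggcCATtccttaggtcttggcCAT
Over these 33 bases, MMP8 and MMP10 each differed from MMP1 at 8 positions, MMP7 and MMP3 at 9, and MMP12 and MMP13 at 11. Over the whole coding sequence, identity between members ran from 39.3% to 85.2% in the 21 pairs, and the closest pair was MMP3 with MMP10. Gaps counted as differences, which lowers the pairs of MMP7, whose coding sequence is the shortest at 801 bases. Pairs with MMP7 ran from 39.3% to 43.9%, and pairs without it from 59.1% to 85.2%. MMP3 with MMP10 was also the 1 pair of 21 whose transcripts shared windows of 50 bases, while MMP1 shared none with any other member. These windows overlap, each moved by 1 base, and 59 of the 1709 in the smaller transcript were shared. Reads from such windows can be divided between MMP3 and MMP10, so in this respect their levels are less certain than that of MMP1. MMP3, MMP12 and MMP13 had no interval on chromosome 11, so whether their reads were divided with a chromosome copy could not be tested. One HG305_PATCH interval, from 102617699 to 102707497, spans the positions of MMP10 and MMP1, so that doubt extends to these genes.

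MMP1 made up nearly all transcript of the cluster. Values are TPM, reads per transcript length scaled to a common total, as the authors deposited them. Of the summed TPM of the 7 named members, MMP1 took 99.4% to 99.5% with shCTDP1-#1, 99.4% to 99.5% with shCTDP1-#2 and 99.6% with shScr. The other 6 members together came to between 5.22 and 6.63 TPM with shCTDP1-#1, between 6.75 and 7.30 TPM with shCTDP1-#2 and between 7.42 and 8.72 TPM with shScr. Among nuclear intervals, MMP1 ranked between 135 and 137 in the shCTDP1-#1 libraries, between 94 and 98 in the shCTDP1-#2 libraries and between 50 and 66 in the shScr libraries.

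**Figure D1:**
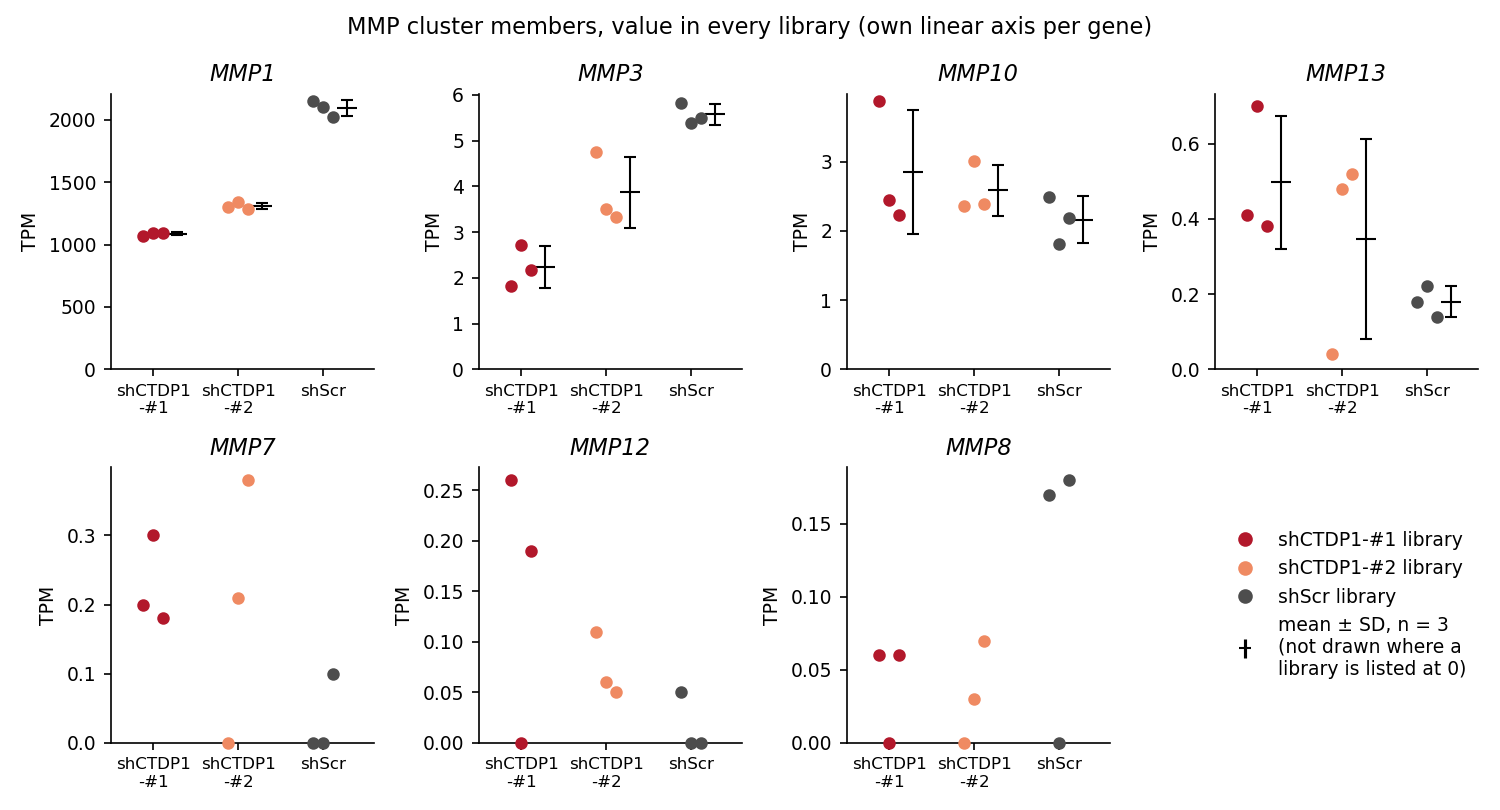
TPM of the 7 named members in every library (points), each gene on its own linear axis from 0, with mean ± SD of 3 libraries beside them; no mean is drawn where a library is listed at 0. MMP1 lies at 1072 to 1096 TPM with shCTDP1-#1, 1290 to 1341 TPM with shCTDP1-#2 and 2023 to 2151 TPM with shScr, with no overlap between groups.

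The order of levels below MMP1 differed between groups. With shCTDP1-#1, MMP10 and MMP3 overlapped, at 2.23 to 3.88 TPM and 1.82 to 2.72 TPM. With shCTDP1-#2, MMP3 lay above MMP10, at 3.34 to 4.76 TPM against 2.36 to 3.01 TPM. With shScr, the gap between this pair was widest, with MMP3 at 5.39 to 5.83 TPM and MMP10 at 1.81 to 2.49 TPM. MMP13, MMP7, MMP12 and MMP8 stayed below 1 TPM in all 9 libraries. MMP13 lay above the other 3 of these with shCTDP1-#1 and overlapped at least 1 of them with shCTDP1-#2 and with shScr.

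Changes were tested on log2(TPM + 1) with limma over the 15011 intervals that reached at least 1 TPM in at least 3 libraries, with a Benjamini-Hochberg adjusted p under 0.05 as the call. Fold changes on this scale understate those of low genes. MMP1, MMP3 and MMP10 passed that filter, and each stood above 1 TPM in all 9 libraries. The other 4 named members and the 12 unnamed intervals did not pass. The comparisons ask how the level of each member changed where CTDP1 was targeted, and whether the hairpins gave the same change. Since RNA was taken from whole cultures, fewer cells that make a transcript and less of it per cell cannot be told apart.

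MMP1 fell with both hairpins, and so did MMP3, which makes 2 of the 3 tested members called lower in each comparison. Both comparisons share the 3 shScr libraries. MMP1 was at 1072, 1096 and 1092 TPM in the shCTDP1-#1 libraries, against 2151, 2106 and 2023 TPM in the shScr libraries. Every shCTDP1-#1 library lay below every shScr library. How many of all tested intervals fell without overlap was not counted for either hairpin, so such separation does not set MMP1 or MMP3 apart. The means were 1087 ± 13 TPM with shCTDP1-#1 and 2094 ± 65 TPM with shScr (SD, n = 3 each), so MMP1 fell by 48.1%. The log2 change was -0.94 (SE 0.03, 95% interval -1.01 to -0.88, limma adjusted p = 3.7e-09). Here 63.1% of all tested intervals were called and 27.7% were called lower, while 774 of the 15011 had a lower log2 change than MMP1. Tested against a fold of 1.5, which called 5.82% of intervals lower, MMP1 passed as well (limma adjusted p = 7.4e-06).

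With shCTDP1-#2, MMP1 was at 1302, 1341 and 1290 TPM, a mean of 1311 ± 26 TPM (SD, n = 3), against the same shScr libraries. Again no library of the hairpin reached the lowest shScr library. MMP1 fell by 37.4%, a log2 change of -0.67 (SE 0.03, 95% interval -0.74 to -0.61, limma adjusted p = 3.9e-08). Of all tested intervals, 64% were called and 24.6% were called lower, and 1130 had a lower log2 change. Against a fold of 1.5, which called 3.84% of intervals lower, MMP1 missed the threshold (limma adjusted p = 0.0561; over all alternatives run, its adjusted p ranged from 1.7e-08 to 0.0561).

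MMP3, the stromelysin next to MMP1, fell with both hairpins too, at a far lower level. It was at 1.82, 2.72 and 2.18 TPM in the shCTDP1-#1 libraries, against 5.83, 5.39 and 5.50 TPM in the shScr libraries. All 3 knockdown libraries lay below all 3 controls. The means were 2.24 ± 0.45 TPM with shCTDP1-#1 and 5.57 ± 0.23 TPM with shScr (SD, n = 3 each), so MMP3 fell by 59.8%, and the log2 change was -1.03 (SE 0.15, 95% interval -1.35 to -0.70, limma adjusted p = 0.00012). Of the 15011 tested intervals, 602 had a lower log2 change than MMP3. Against a fold of 1.5, MMP3 passed at a limma adjusted p of 0.0454, the highest over all alternatives. The filter of at least 5 TPM in at least 3 libraries is no support for this call, since MMP3 passed it only through the shScr libraries.

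In the shCTDP1-#2 libraries MMP3 was at 4.76, 3.51 and 3.34 TPM, a mean of 3.87 ± 0.78 TPM (SD, n = 3), against 5.57 ± 0.23 TPM with shScr. The groups did not overlap, although replicate 1 of the hairpin came closer to the controls than the other two. The mean fell by 30.6%, and the log2 change was -0.44 (SE 0.15, 95% interval -0.77 to -0.12, limma adjusted p = 0.0213). This call rested on single libraries. The limma adjusted p was 0.0776 without shCTDP1-#2 replicate 3, 0.0671 without shCTDP1-#2 replicate 2 and 0.062 without shScr replicate 1, and over all alternatives it ranged from 0.0073 to 1; the value of 1 came from the test against a fold of 1.5.

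MMP10, the other stromelysin and the closest relative of MMP3, did not pass the test with either hairpin. It was at 3.88, 2.44 and 2.23 TPM in the shCTDP1-#1 libraries, at 2.36, 3.01 and 2.39 TPM in the shCTDP1-#2 libraries, and at 2.49, 1.81 and 2.19 TPM in the shScr libraries. Values of the groups overlapped, and the highest belonged to shCTDP1-#1 replicate 1. The log2 change was 0.26 with shCTDP1-#1 (95% interval -0.13 to 0.66, limma adjusted p = 0.214) and 0.18 with shCTDP1-#2 (95% interval -0.21 to 0.57, limma adjusted p = 0.390). Single libraries weighed on both values. The first was 0.08 without shCTDP1-#1 replicate 1, and the second was 0.10 without shCTDP1-#2 replicate 2 and 0.10 without shScr replicate 2. The intervals do not show that MMP10 was unaffected; they leave room for a rise by a log2 change of 0.66 or a fall by a log2 change of -0.21.

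**Figure D2:**
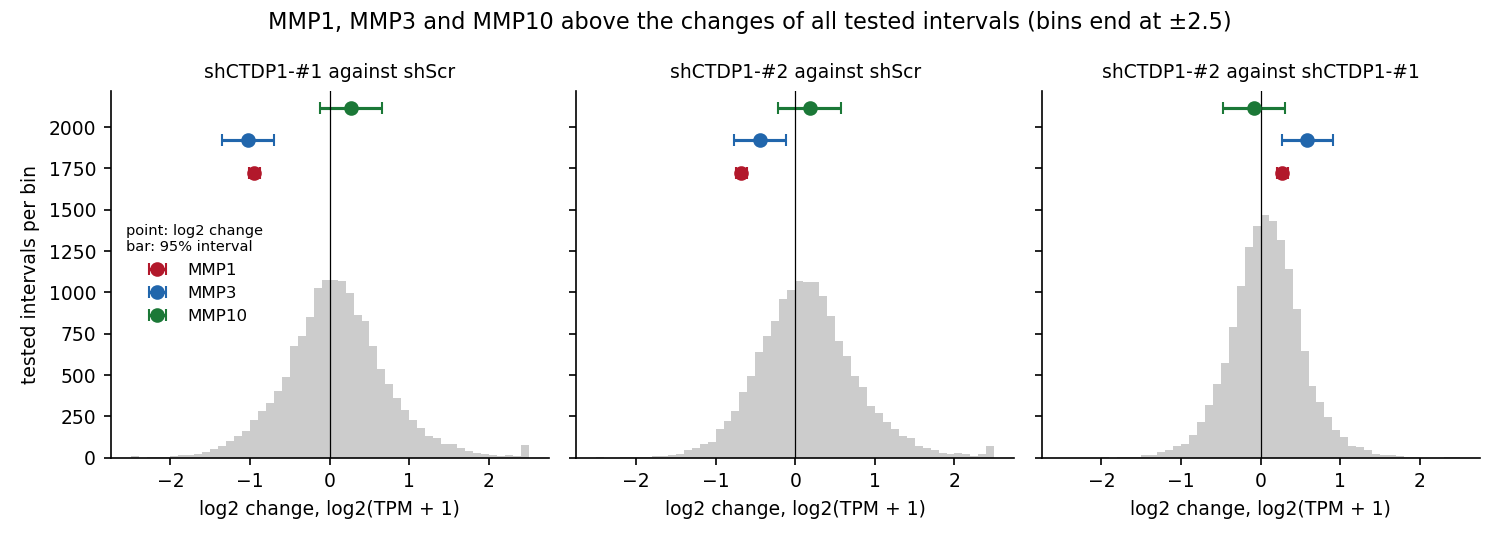
Log2 change of MMP1, MMP3 and MMP10 (points, with 95% intervals as bars) in the 3 comparisons, drawn above a histogram of the log2 changes of all 15011 tested intervals; values beyond the axis are placed in the outermost bins. MMP1 and MMP3 lie below 0 with either hairpin against shScr and above 0 for shCTDP1-#2 against shCTDP1-#1, and the MMP10 bars cross 0 throughout.

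MMP3 and MMP10 were closer in level in the knockdown libraries than in the controls. The ratio of MMP3 to MMP10 within a library was 0.469, 1.11 and 0.978 in the shCTDP1-#1 libraries, 2.02, 1.17 and 1.40 in the shCTDP1-#2 libraries, and 2.34, 2.98 and 2.51 in the shScr libraries. No knockdown library reached the lowest shScr library. Against shScr, p was 0.1 for each hairpin by exact permutation (two-sided, n = 3 each), which is the lowest that groups of this size can reach and does not pass 0.05. A ratio within a library does not depend on the scaling of that library.

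The ratio of MMP1 to MMP3 was 589, 403 and 501 with shCTDP1-#1, against 369, 391 and 368 with shScr. The groups did not overlap, but at the lowest p that groups of this size can reach (exact two-sided permutation p = 0.1, n = 3 each) an unequal fall of MMP1 and MMP3 is not shown. With shCTDP1-#2 it was 274, 382 and 386, which overlapped shScr (exact two-sided permutation p = 0.8, n = 3 each).

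**Figure D3:**
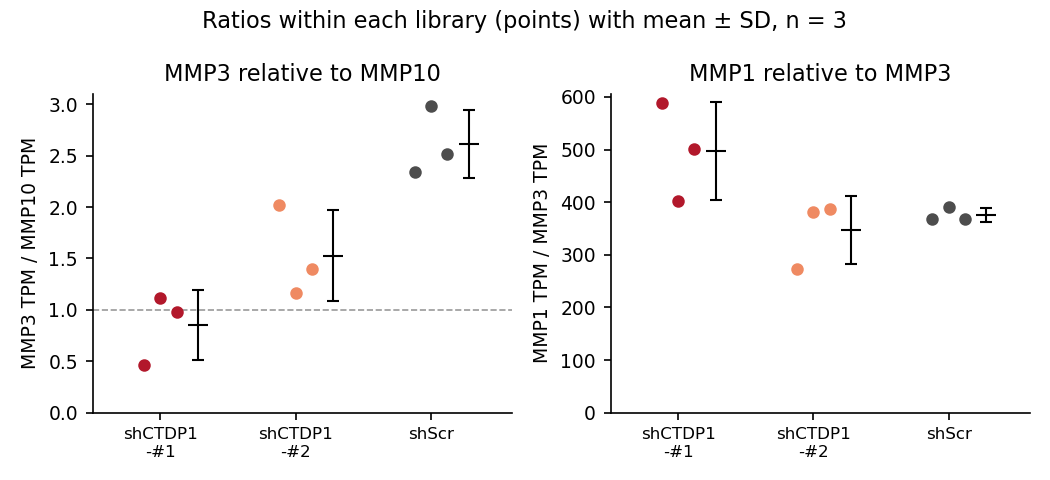
MMP3 TPM divided by MMP10 TPM (left, dashed line at a ratio of 1) and MMP1 TPM divided by MMP3 TPM (right) in each library (points), with mean ± SD of 3 libraries. The left ratio is between 0.469 and 1.11 with shCTDP1-#1, between 1.17 and 2.02 with shCTDP1-#2 and between 2.34 and 2.98 with shScr.

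The hairpins differed from each other in both genes that fell. MMP1 averaged 1311 ± 26 TPM with shCTDP1-#2 and 1087 ± 13 TPM with shCTDP1-#1 (SD, n = 3 each), a log2 difference of 0.27 (SE 0.03, 95% interval 0.20 to 0.34, limma adjusted p = 4.4e-05). MMP3 averaged 3.87 ± 0.78 TPM with shCTDP1-#2 and 2.24 ± 0.45 TPM with shCTDP1-#1, a log2 difference of 0.59 (SE 0.15, 95% interval 0.26 to 0.91, limma adjusted p = 0.0069). In either gene, all shCTDP1-#2 libraries lay above all shCTDP1-#1 libraries, and the share of all tested intervals separated in this way was not counted. MMP10 had a log2 difference of -0.08 (95% interval -0.47 to 0.31, limma adjusted p = 0.728). In this comparison 50.2% of all tested intervals were called and 30.2% were called higher, so 2 higher members among 3 tested is set against a background where such calls were common. Against a fold of 1.5, where 2.84% of intervals were called higher, neither gene passed (limma adjusted p = 1 for either). How far the hairpins lowered CTDP1 was not analysed here, and its part in the difference was not tested.

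Over the libraries as a whole, the median log2 change of tested intervals was 0.07 with shCTDP1-#1 and 0.13 with shCTDP1-#2. Mitochondrial intervals took 4.47% of the TPM of shScr replicate 1 and between 1.12% and 2.28% of the other 8 libraries. With mitochondrial intervals left out and the rest rescaled, an alternative chosen after seeing the data, MMP1 had log2 changes of -0.95 with shCTDP1-#1 and -0.68 with shCTDP1-#2, and MMP3 of -1.04 and -0.45, in the same order. Scaling by the median of ratios, a centring method, gave -0.98 and -0.78 for MMP1. Between the hairpins, the median log2 difference of tested intervals was 0.07. There the same scaling gave 0.20 for MMP1 and 0.53 for MMP3, against 0.27 and 0.59 without it. Both differences were still called (limma adjusted p = 0.00056 and 0.0108).

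In absolute terms, MMP1 fell by 1007 TPM with shCTDP1-#1 and fell by 783 TPM with shCTDP1-#2, which placed it at rank 14 and rank 29 of the losses among nuclear intervals. Such ranks favour abundant intervals. Tested nuclear intervals with a shScr mean at least that of MMP1 numbered 61. With shCTDP1-#1, 33 of them were called lower and 17 higher, with a median log2 change of -0.17, and 6 fell at least as far as MMP1. With shCTDP1-#2, 50 were called lower and 5 higher, with a median of -0.37, and 17 fell at least as far. Falls were thus common among intervals this abundant.

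The remaining named members were near the lower limit of the data. MMP13, a collagenase of cartilage and bone, was at 0.41, 0.70 and 0.38 TPM with shCTDP1-#1, at 0.04, 0.48 and 0.52 TPM with shCTDP1-#2, and at 0.18, 0.22 and 0.14 TPM with shScr. MMP7, the matrilysin, was at 0.20, 0.30 and 0.18 TPM with shCTDP1-#1, at 0, 0.21 and 0.38 TPM with shCTDP1-#2, and at 0, 0 and 0.10 TPM with shScr. For both genes the shCTDP1-#1 libraries lay above all shScr libraries, and the shCTDP1-#2 libraries overlapped them.

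MMP12 was at 0.26, 0 and 0.19 TPM with shCTDP1-#1, at 0.11, 0.06 and 0.05 TPM with shCTDP1-#2, and at 0.05, 0 and 0 TPM with shScr. MMP8, the collagenase of neutrophils, was at 0.06, 0 and 0.06 TPM with shCTDP1-#1, at 0, 0.03 and 0.07 TPM with shCTDP1-#2, and at 0.17, 0 and 0.18 TPM with shScr. In MMP8 the groups overlapped; in MMP12 the lowest shCTDP1-#2 value equalled the highest shScr value. With no filter on low values, limma called 0 of these 4 members with either hairpin, and 0 had an unadjusted p under 0.05. The adjusted p lay between 0.162 and 0.345 for shCTDP1-#1, and between 0.269 and 0.546 for shCTDP1-#2. That unfiltered fit called 33.5% of 28927 intervals with shCTDP1-#1 and 33.4% with shCTDP1-#2. All shCTDP1-#1 libraries lay above all shScr libraries in 2 of the 4 members, MMP13 and MMP7, and in 26% of all 28927 intervals. For shCTDP1-#2 this was so in 0 of the 4 members and in 27.2% of all intervals.

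Values above 0 were more frequent in knockdown libraries across the genome. The number of intervals above 0 TPM was 22170 ± 298 with shCTDP1-#1, 21844 ± 265 with shCTDP1-#2 and 19764 ± 266 with shScr (SD, n = 3 each). Its part in the low values of MMP13, MMP7 and MMP12 was not tested. The deposited TPM give no read totals, so depth is unknown and a value of 0 has no stated detection limit.

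The 12 unnamed intervals of the region were low or silent. Of these, 8 were at 0 in all 9 libraries, among them both entries of HG305_PATCH that share one position. The highest value of any was 0.45 TPM, in shCTDP1-#2 replicate 3, for the HG305_PATCH interval from 102617699 to 102707497. On chromosome 11 the interval from 102447566 to 102496063 was at 0.32, 0.10 and 0.05 TPM with shCTDP1-#1, at 0, 0.05 and 0.27 TPM with shCTDP1-#2, and at 0 in all shScr libraries. In these 9 libraries, MMP1, MMP3 and MMP10 were the only intervals of the region above 1 TPM.

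**Figure D4:**
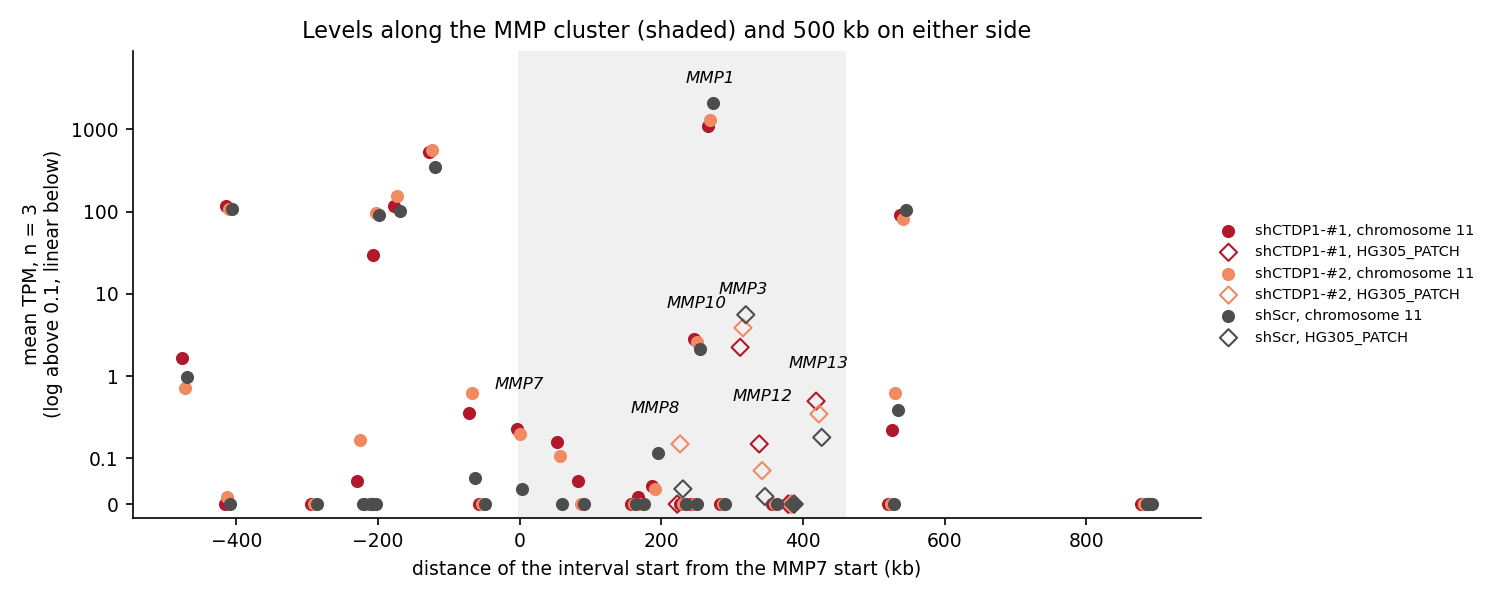
Mean TPM of 3 libraries for each interval of the cluster (shaded) and within 500 kb of it, against the distance of its start from the MMP7 start in kb; the axis is logarithmic above 0.1 TPM and linear below, and groups are set apart sideways by 4 kb. Filled circles lie on chromosome 11 and open diamonds on HG305_PATCH; MMP1 stands at means of 1087 to 2094 TPM between neighbours at or below a few TPM.

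The flanks of the cluster held calls in both directions, as did the tested intervals as a whole, of which 63.1% were called with shCTDP1-#1 and 64% with shCTDP1-#2. Within 500 kb on either side lay 23 intervals, of which 6 passed the filter. With shCTDP1-#1, 3 were called higher and 2 lower, with log2 changes from -1.59 to 0.62 and a median of 0.16. With shCTDP1-#2, 2 were called higher and 1 lower, with log2 changes from -0.36 to 0.70 and a median of 0.04. Both intervals named next were singled out after their values were seen. The interval with the lowest log2 change, from 102188215 to 102210134, averaged 29.6 TPM with shCTDP1-#1, 95.6 TPM with shCTDP1-#2 and 91.2 TPM with shScr. Its log2 changes were -1.59 (limma adjusted p = 2.3e-08) and 0.07 (limma adjusted p = 0.421), so it fell with shCTDP1-#1 and did not pass the test with shCTDP1-#2, and the hairpins differed by 1.65 (limma adjusted p = 4.7e-08). The interval from 102267063 to 102341115, the tested flanking interval nearest to MMP7, averaged 534 TPM with shCTDP1-#1, 561 TPM with shCTDP1-#2 and 346 TPM with shScr. Its log2 changes were 0.62 (limma adjusted p = 2.0e-06) and 0.70 (limma adjusted p = 9.4e-07), opposite in sign to those of MMP1.

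Outside the cluster, the interval whose profile over the 9 libraries was closest to MMP1 lay on chromosome 7 from 107531415 to 107572175. It averaged 44.7 ± 0.7 TPM with shCTDP1-#1, 53.8 ± 1.0 TPM with shCTDP1-#2 and 87.1 ± 2.0 TPM with shScr (SD, n = 3 each). Likeness was the root-mean-square difference of log2(TPM + 1), each profile centred on its shScr mean, and it was 0.03 here, which is the lowest of the 15008 compared because the interval was picked for it. For MMP3 the closest was on chromosome 12 from 110338069 to 110421646, at 19.1 ± 0.9 TPM with shCTDP1-#1, 29.6 ± 4.0 TPM with shCTDP1-#2 and 39.0 ± 0.5 TPM with shScr, with a difference of 0.10. All 9 libraries enter each profile, and 3 groups set most of its shape.

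Promoter sequence was at hand for 3 named members, MMP7, MMP8 and MMP10, and not for MMP1, MMP3, MMP12 and MMP13. The 250 bases before the start of MMP10 and MMP7 are shown because several genes of this cluster are known to respond to the AP-1 transcription factor through such an element. The sequences are from RefSeq (GRCh38.p14), both on the minus strand, 5′ to 3′, at chr11:102780629-102780878 for MMP10 and chr11:102530748-102530997 for MMP7. Capitals mark matches to the AP-1 element TGANTCA and to the TATA box TATAAA.
MMP10: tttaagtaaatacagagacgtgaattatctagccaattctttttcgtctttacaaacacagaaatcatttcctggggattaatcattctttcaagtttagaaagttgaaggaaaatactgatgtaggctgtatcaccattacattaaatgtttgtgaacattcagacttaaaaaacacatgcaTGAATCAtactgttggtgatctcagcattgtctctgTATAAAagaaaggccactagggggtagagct
MMP7: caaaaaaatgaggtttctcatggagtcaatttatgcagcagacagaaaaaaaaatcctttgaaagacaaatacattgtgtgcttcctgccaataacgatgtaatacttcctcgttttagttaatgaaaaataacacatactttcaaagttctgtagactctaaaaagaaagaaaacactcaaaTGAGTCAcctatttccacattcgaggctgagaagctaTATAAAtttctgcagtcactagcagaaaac
On either strand of these windows, each of both genes held 1 AP-1 element, starting 67 bases before the gene start in both, and 1 TATA box, starting 31 bases before it in MMP10 and 30 in MMP7. MMP8 held a TATA box starting 110 bases before the start and no match to the AP-1 element. The ETS core AGGAA, not capitalised, occurred 2 times in MMP10, 2 times in MMP7 and 4 times in MMP8, without overlap with the capitals. Of 35116 promoters of the same length, 6.57% held the AP-1 element, 10.7% the TATA box and 56.8% the ETS core. MMP10, with both elements, was at 1.81 to 3.88 TPM over the 9 libraries, and MMP7, with both as well, at 0 to 0.38 TPM.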

How the data were processed

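RNA of 9 MDA-MB-231 libraries was sequenced, 3 per group. STAR, RSEM and hg19 are named in the submitters' processing notes, with no versions; the annotation and other settings are not given in the sources used here. As the authors deposited it, each file holds 1 TPM value with 2 decimals per genomic interval; the unit was inferred from column sums of about 1000000 and from RSEM. TPM keeps no depth, so no counting interval is given. Files were joined on coordinates, 2246 rows that share a position were left out, and 2 files ended in a blank row. No pair of libraries was identical.

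The 15011 intervals at or above 1 TPM in 3 or more libraries were fitted as log2(TPM + 1) with limma 3.58.1 (trend and robust options, statmod 1.5.0, R 4.3.3), group means of all 9 libraries and 6 residual degrees of freedom; p-values were adjusted over all tested intervals. The count-based test in the design was not used, since the values are not counts. Ratios were compared by exact permutation. Alternatives were the pseudocount, the filter, the scaling, the variance model, the libraries in the fit, a replicate block, each library left out and a test against a fold of 1.5.

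All named members are printed. The members and lists were chosen with earlier results of these data known. The design's list of other metalloproteinases, inhibitors, activators and transcription factors was not analysed, as no reference of the files' build names the intervals. Transcript identity was computed with Biopython 1.88.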

Additional observations from a re-analysis of the deposited data

Results flagged for a closer look

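MMP1 and MMP3 are listed here since shCTDP1-#2 and shCTDP1-#1 changed them by unequal amounts, by a direct test of one hairpin against the other. MMP1 was higher with shCTDP1-#2 than with shCTDP1-#1 by 0.27 on the log2 scale (limma adjusted p = 4.4e-05), with all 3 libraries of shCTDP1-#2 above all 3 of shCTDP1-#1. MMP3 was higher with shCTDP1-#2 by 0.59 (limma adjusted p = 0.0069), again without overlap. Of all tested intervals, 50.2% were called different between the hairpins, and the share separated without overlap was not counted. Groups of 3 libraries are too small for a test of single outlying libraries.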

How the results depend on the processing

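All alternatives were planned except the one without mitochondrial intervals, which was added once the data had been seen. MMP1 and MMP3 kept their direction in all 19 alternatives with either hairpin and between the hairpins. In many of these the log2 change could not move, so they bear on the calls alone. Such were the other filters, the variance model, the replicate block, the test against a fold of 1.5 and the fit of only the libraries compared. Leaving out a library of the group not compared was another. The exceptions to the calls of MMP1 and MMP3 were these. Against a fold of 1.5, the log2 change of MMP1 with shCTDP1-#2 (-0.67, adjusted p = 0.0561) and of MMP3 with shCTDP1-#2 (-0.44, adjusted p = 1), and the differences of 0.27 and 0.59 between the hairpins (adjusted p = 1 each), were no longer called, since that test asks for a larger change. For shCTDP1-#1 that test called 1184 intervals higher and 873 lower, for shCTDP1-#2 1429 higher and 576 lower, and between the hairpins 426 higher and 237 lower; in the cluster it called 0 lower with shCTDP1-#2 and 0 higher between the hairpins. Leaving out each library gave 1 to 2 cluster intervals lower with shCTDP1-#2, since MMP3 missed the threshold without shScr replicate 1, shCTDP1-#2 replicate 2 or shCTDP1-#2 replicate 3, where its log2 change was -0.42, -0.39 and -0.37 in that order. Over all libraries left out in turn, that log2 change ran from -0.57 to -0.37. The difference of MMP10 between the hairpins, not called in any alternative, ran from -0.20 to 0.10 with a library left out and so turned in sign.

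The groups share replicate numbers. Across groups, libraries with one number had residual correlations between -0.01 and 0.05, and libraries with unlike numbers had -0.05 to 0.02. For 8 of 9 libraries the best match carried the same number, which is a hint that no label backs. With the replicate block, MMP1 had log2 changes of -0.94 and -0.67 (limma adjusted p = 1.3e-07 and 7.8e-07) and MMP3 of -1.03 and -0.44 (adjusted p = 0.00054 and 0.0365) with shCTDP1-#1 and shCTDP1-#2, and no cluster call changed. The depth of the libraries is unknown, which limits what can be said of the 4 members below 1 TPM.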
